A study of Mus musculus with 8 samples.

Results

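Fbxo32, Trim63, Fbxo30, Fbxo21, Foxo1, Foxo3, Klf15, Ctsl, Bnip3 and Gabarapl1 are atrophy genes (atrogenes) of skeletal muscle and their regulators. They were taken by symbol from the Ensembl gene identifiers of the deposited count tables, and all 10 were found once each among 49315 genes. All 10 also passed the filter on low counts, which left 19571 genes for testing. The study measured total RNA of flash-frozen gastrocnemius, the large calf muscle, from C57BL/6 mice aged 3 months, 12 months, 24 months or 30 months. Each age has 2 libraries, 8 in all, and no treatment or genetic change is named for any of them. Whether both libraries of an age are from different mice is not in the labels, and the p-values cover no more than the spread between libraries, which may be technical.

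Muscle loses protein by tagging it with ubiquitin for the proteasome and by autophagy, in which vesicles carry cell contents to lysosomes. Ubiquitin ligases choose the proteins to be tagged, and the ligases Fbxo32 (atrogin-1) and Trim63 (MuRF1) are known as markers of wasting because fasting, denervation and glucocorticoids raise their transcripts. FoxO transcription factors, held out of the nucleus by insulin signalling through Akt, switch on both ligases and many autophagy genes. Klf15 is a zinc finger factor that glucocorticoids induce and that promotes amino acid breakdown in muscle.

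The promoter of Trim63 is shown because it holds letters of both regulators, and that of Klf15 because it holds E-boxes, the elements bound by the CLOCK and ARNTL pair of the circadian clock. Windows of 300 bases, from 250 before to 50 after a start annotated by RefSeq, were on GRCm38.p6 for 9 of the 10 genes, all but Fbxo32. That start can differ from the gene positions given below. The Fbxo30 window (11281337 to 11281636) lies inside those positions, and the Ctsl window (64370471 to 64370770) wholly outside them. Both strands were searched for the FoxO core GTAAACA, the glucocorticoid element (GNACA and TGTNC with any 3 bases between them), the E-box CACGTG and the D-box TTANGTAA, where N is any base. Capitals mark every match, both sequences run 5′ to 3′ on the strand of the gene, which is the plus strand for both, and they lie at chr4:134314870-134315169 for Trim63 and chr6:90462326-90462625 for Klf15.
Trim63: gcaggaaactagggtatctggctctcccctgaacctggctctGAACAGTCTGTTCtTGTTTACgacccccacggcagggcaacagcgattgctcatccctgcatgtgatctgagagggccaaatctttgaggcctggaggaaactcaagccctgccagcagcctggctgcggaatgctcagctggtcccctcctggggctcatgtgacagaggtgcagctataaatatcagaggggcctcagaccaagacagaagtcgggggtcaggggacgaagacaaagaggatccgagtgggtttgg
Klf15: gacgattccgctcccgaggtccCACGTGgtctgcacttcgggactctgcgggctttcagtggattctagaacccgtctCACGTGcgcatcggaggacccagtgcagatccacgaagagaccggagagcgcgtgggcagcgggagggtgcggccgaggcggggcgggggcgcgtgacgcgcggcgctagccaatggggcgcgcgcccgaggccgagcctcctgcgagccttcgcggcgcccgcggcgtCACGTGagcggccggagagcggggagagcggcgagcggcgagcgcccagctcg

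In the Trim63 window the glucocorticoid element GAACAGTCTGTTC is followed after a single base by TGTTTAC, which is the FoxO core on the other strand. The FoxO core was present in 3.65% and the glucocorticoid element in 0.475% of all 32851 windows. Trim63 was the only gene of the 9 with a match to either. The Klf15 window held 3 E-boxes, and the windows of Ctsl and Bnip3 held 1 each, while 7.15% of all windows held at least 1. No D-box was found in the 9 windows, against 2.32% of all windows. A match is a description of the letters and does not show that a factor binds there.

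Libraries held 42404254 to 59245029 counts. The fast-fibre myosin gene Myh4, which marks the fibres that dominate gastrocnemius, was at 30841 to 78985 CPM (counts scaled to a common library total, here with TMM, a factor that corrects for library makeup). The libraries did not fall into groups by age alone. A clock score was taken as the mean log2 CPM of Dbp, Tef, Nr1d1, Per3 and Ciart minus that of Arntl, Npas2 and Clock. It was 3.30 in replicate 2 of 12 months, 2.96 in replicate 2 of 24 months and 2.75 in replicate 1 of 30 months, and -0.77 to 0.86 in the other 5 libraries. The summed level of 9 kidney genes parted the same libraries, with 0.507 to 0.701 CPM in those 3 and 3.57 to 52.0 CPM in the other 5. Both libraries of 3 months belong to the 5 and had the lowest clock scores and the highest kidney levels, 52.0 and 17.0 CPM. In comparisons with 3 months, age thus moves with both measures, and a model that holds the division into 3 and 5 libraries accounts for that division alone. Replicate 2 of 30 months stood apart in its markers, with summed slow-fibre markers at 2141 CPM against 355 to 1196 CPM in the other 7 libraries, and macrophage markers at 174 CPM against 66.8 to 115 CPM. It was also highest in heart markers, at 24.0 CPM against 8.69 to 13.9 CPM. Its summed muscle fibre markers were the lowest, at 77639 CPM against 91126 to 166472 CPM.

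Transcript levels of the 10 genes spanned more than an order of magnitude when divided by exonic length. On that scale (CPM per kilobase, mean of 8 libraries) Trim63 stood highest at 86.3, followed by Bnip3 at 63.0, Fbxo32 at 58.5 and Ctsl at 33.2. Gabarapl1 at 18.5 and Klf15 at 12.2 came next. The lowest were Foxo3 at 5.90, Fbxo30 at 4.94, Fbxo21 at 2.92 and Foxo1 at 2.27. Neighbours whose ranges over libraries overlapped were Trim63 (71.2 to 125) with Bnip3 (56.2 to 73.7), Bnip3 with Fbxo32 (47.8 to 72.8), Foxo3 (5.31 to 7.12) with Fbxo30 (3.64 to 5.73), Fbxo30 with Fbxo21 (2.08 to 3.85), and Fbxo21 with Foxo1 (1.86 to 3.13). Ctsl, Gabarapl1 and Klf15 did not overlap with their neighbours above or below. The counts behind these levels ran from 535 for Fbxo21 in its lowest library to 27231 for Fbxo32 in its highest.

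**Figure D1:**
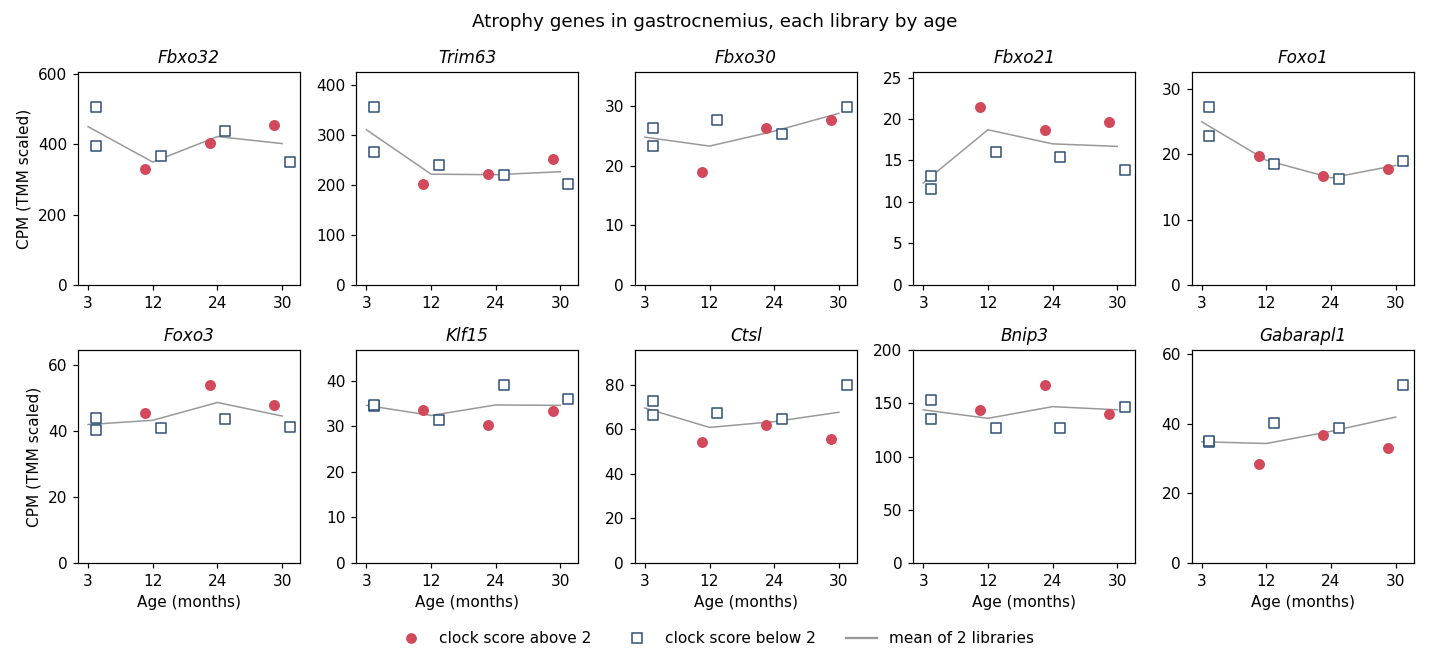
Level of each gene in CPM (vertical axis, from 0) at 3, 12, 24 and 30 months, with 1 point per library and a line through the mean of the 2 libraries. Filled circles are the 3 libraries with a clock score above 2 and open squares the other 5, and Trim63 and Foxo1 lie lower in the 6 later libraries than in both libraries of 3 months.

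Of the ubiquitin ligases, the classic wasting markers Fbxo32 and Trim63 had log2 fold changes below 0 at 30 months, and neither passed the test. Fbxo32 (ENSMUSG00000022358, chromosome 15, 58175879 to 58214892, GRCm38, minus strand), an F-box protein that brings targets to an SCF ligase, had 395 and 505 CPM in the 3 month libraries, 368 and 331 in those of 12 months, 438 and 405 in those of 24 months and 454 and 351 in those of 30 months. The 30 month libraries lay on both sides of the lower library of 3 months, so the groups overlapped. It averaged 402 ± 72.6 CPM in the 30 month libraries, against 450.1 ± 77.6 CPM in those of 3 months (SD, n = 2 each). The log2 fold change was -0.16 (SE 0.21, adjusted p = 0.897 in edgeR's quasi-likelihood test), with a 95% interval of -0.62 to 0.30.

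Trim63 (ENSMUSG00000028834, chromosome 4, 134315120 to 134329629, plus strand), a RING finger ligase of sarcomere proteins, had 266 and 356 CPM in the 3 month libraries, 241 and 203 in those of 12 months, 220.2 and 222 in those of 24 months and 252 and 202 in those of 30 months. All 6 later libraries were below both libraries of 3 months. The later ages overlapped each other. In bulk tissue such as this, fewer cells of a type and less RNA per cell cannot be told apart. The mean was 227 ± 35.1 CPM in the 30 month libraries, against 311 ± 63.3 CPM in those of 3 months (SD, n = 2 each). Its log2 fold change was -0.45 (SE 0.20). That difference did not pass the threshold over all genes (adjusted p = 0.601), nor did -0.49 at 24 months (adjusted p = 0.640) or -0.48 at 12 months (adjusted p = 0.898). Replicate 2 of 3 months carried much of it, since without that library the value for 30 months was -0.22.

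Fbxo30 (ENSMUSG00000047648, chromosome 10, 11281330 to 11298052, plus strand) encodes MUSA1, an F-box ligase known to rise when BMP signalling is low. It had 26.3 and 23.3 CPM in the 3 month libraries, 27.7 and 18.9 in those of 12 months, 25.3 and 26.4 in those of 24 months and 27.7 and 29.8 in those of 30 months. Both 30 month libraries were above both of 3 months, but by less than the gap between the 2 libraries of 12 months. The log2 fold change for 30 against 3 months was 0.22 (SE 0.18, adjusted p = 0.826).

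Fbxo21 (ENSMUSG00000032898, chromosome 5, 117976730 to 118010201, plus strand) encodes SMART, an F-box ligase under FoxO control in mouse muscle. It had 11.6 and 13.1 CPM in the 3 month libraries, 16.0 and 21.4 in those of 12 months, 15.4 and 18.7 in those of 24 months and 19.6 and 13.8 in those of 30 months. All 6 later libraries were above both of 3 months, the opposite of Trim63. Against 3 months the log2 fold change was 0.60 at 12 months (SE 0.21, adjusted p = 0.870), 0.47 at 24 months (SE 0.21, adjusted p = 0.663) and 0.44 at 30 months (SE 0.21, adjusted p = 0.629), none of which passed. A second model held the library set, the division of libraries by kidney transcripts and thus also by clock score, as a term. There the values were smaller, at 0.39, 0.26 and 0.22 in the same order of ages.

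Of the FoxO factors, Foxo1 was lower in every later library and Foxo3 overlapped between ages. Foxo1 (ENSMUSG00000044167, chromosome 3, 52268336 to 52353221, plus strand) had 22.8 and 27.2 CPM in the 3 month libraries, 18.5 and 19.7 in those of 12 months, 16.2 and 16.7 in those of 24 months and 17.7 and 19.0 in those of 30 months. All 6 later libraries were below both of 3 months, and the 2 libraries of each later age lay close together. The mean was 16.4 ± 0.372 CPM in the 24 month libraries, against 25.0 ± 3.09 CPM in those of 3 months (SD, n = 2 each). The log2 fold change was -0.61 at 24 months (SE 0.14, 95% interval -0.93 to -0.29), and Foxo1 had the lowest p of the 10 genes in that comparison. Adjusted over all genes it did not pass, with 0.311 at 24 months, 0.373 for the -0.45 (SE 0.14) at 30 months and 0.882 for the -0.39 at 12 months. Holding the library set as a term left the log2 fold changes at -0.61, -0.45 and -0.39 for 24, 30 and 12 months, with adjusted p-values of 0.128, 0.149 and 0.561.

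Foxo3 (ENSMUSG00000048756, chromosome 10, 42181841 to 42276755, minus strand), the FoxO factor best known for switching on Fbxo32 and autophagy genes, had 40.2 and 43.9 CPM in the 3 month libraries, 41.1 and 45.5 in those of 12 months, 43.6 and 53.9 in those of 24 months and 47.9 and 41.3 in those of 30 months. Every age overlapped with 3 months. Its log2 fold change for 30 against 3 months was 0.09 (SE 0.16, adjusted p = 0.937). Transcript levels do not report where FoxO proteins lie or how they are phosphorylated, which sets their activity.

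Klf15 (ENSMUSG00000030087, chromosome 6, 90462576 to 90475238, plus strand) had 34.5 and 34.7 CPM in the 3 month libraries, 31.3 and 33.5 in those of 12 months, 39.0 and 30.3 in those of 24 months and 33.3 and 36.0 in those of 30 months. It had the narrowest range of the 10 genes, with the highest library at 1.29 times the lowest. For 30 against 3 months the log2 fold change was 0.0016 (SE 0.15, adjusted p = 1.00) with a 95% interval of -0.34 to 0.35, or 0.788-fold to 1.27-fold.

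Among the effectors, Ctsl (ENSMUSG00000021477, chromosome 13, 64363214 to 64370306, minus strand), which encodes the lysosomal protease cathepsin L, had 66.5 and 72.7 CPM in the 3 month libraries, 67.6 and 54.2 in those of 12 months, 64.9 and 62.0 in those of 24 months and 55.5 and 79.8 in those of 30 months. The 30 month libraries held both an extreme high and a near-lowest value, and the groups overlapped. Its log2 fold change for 30 against 3 months was -0.04 (SE 0.20, adjusted p = 0.975). Bnip3 (ENSMUSG00000078566, chromosome 7, 138890836 to 138909519, minus strand), a mitochondrial receptor for autophagy, had 153 and 135 CPM in the 3 month libraries, 127 and 144 in those of 12 months, 127 and 167 in those of 24 months and 140.5 and 147 in those of 30 months. Both libraries of 30 months lay between those of 3 months, and the log2 fold change was -0.0069 (SE 0.18, adjusted p = 0.998).

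Gabarapl1 (ENSMUSG00000030161, chromosome 6, 129533160 to 129542346, plus strand), a member of the LC3 family that coats autophagy vesicles, had 34.7 and 34.9 CPM in the 3 month libraries, 40.2 and 28.4 in those of 12 months, 38.7 and 36.8 in those of 24 months and 32.9 and 51.0 in those of 30 months. The highest value was in replicate 2 of 30 months, the library rich in slow-fibre, macrophage and heart markers and lowest in muscle fibre markers. The log2 fold change for 30 against 3 months was 0.27 (SE 0.23, adjusted p = 0.822), and it was -0.08 without that library. Holding the library set in the model gave 0.44 (adjusted p = 0.190). Ctsl was also highest there, and the part of those cell types in either level was not tested. The summed fibroblast markers Pdgfra, Col1a1, Col3a1 and Dcn were at 516 to 1076 CPM in the later libraries and 1195 to 1308 CPM at 3 months. These sums did not overlap. The log2 fold changes for 30 against 3 months were -1.85 for Col1a1, -1.05 for Col3a1, -0.34 for Pdgfra and -0.22 for Dcn. None of these passed. The part of these markers in the values of any of the 10 genes was not tested.

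Neighbouring annotation touches some of these genes, and the sources used here do not state whether counting used strand. Inside Foxo1 lies Gm38034 on the same strand, with 95 to 492 counts against 804 to 1465 for Foxo1. The antisense gene Gm15943 overlaps Fbxo32 and had 218 to 476 counts against at least 16999. The processed pseudogene Gm18258 lies opposite to Bnip3 and had 11 to 111 counts against at least 6394. Of these 3, the neighbour of Foxo1 was the largest relative to the gene itself.

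Set side by side, edgeR's quasi-likelihood test called 0 of the 10 genes (adjusted p below 0.05) in any of the 6 pairs of ages. For 30 against 3 months, 0.148% of all genes passed, 0.102% for 24 against 3 months and 0.0409% for 12 against 3 months. Shares were 0.00511% for 30 against 12 months and 0% for 24 against 12 and for 30 against 24 months. Of the 10 genes, 1 had an unadjusted p below 0.05 in edgeR for 30 against 3 months (Foxo1), 2 for 24 against 3 months (Trim63 and Foxo1) and 3 for 12 against 3 months (Trim63, Fbxo21 and Foxo1), and 0 in the other 3 pairs. The same was true of 8.52%, 7.56% and 5.50% of all genes for 30, 24 and 12 against 3 months, and of 3.07%, 3.10% and 5.21% for 24 against 12, 30 against 24 and 30 against 12 months. DESeq2 and limma-voom called 0 of the 10 as well. Of all genes, DESeq2 called 213, 133 and 69 for 30, 24 and 12 against 3 months and limma-voom 23, 10 and 7, where edgeR called 29, 20 and 8.

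A test across the 4 ages called 0 of the 10 genes and 0.0613% of all genes, with 1 of the 10 and 5.66% of all genes at an unadjusted p below 0.05 in edgeR. A linear slope on age called 0 of the 10 and 0.133% of all genes, with 2 of the 10 and 9.83% of all genes at an unadjusted p below 0.05. The lowest adjusted p in these models belonged to Foxo1, with 0.571 across the ages and 0.276 for a slope of -0.018 (SE 0.005) on the log2 scale per month. With the library set as a term 0 of the 10 passed in any comparison, while the share of all genes called was 2.13% for 30 against 3 months, 0.363% for 24 against 3 months, 0.148% for 12 against 3 months, 0.281% for 30 against 12 months, 1.04% across the ages and 1.51% for the slope.

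**Figure D2:**
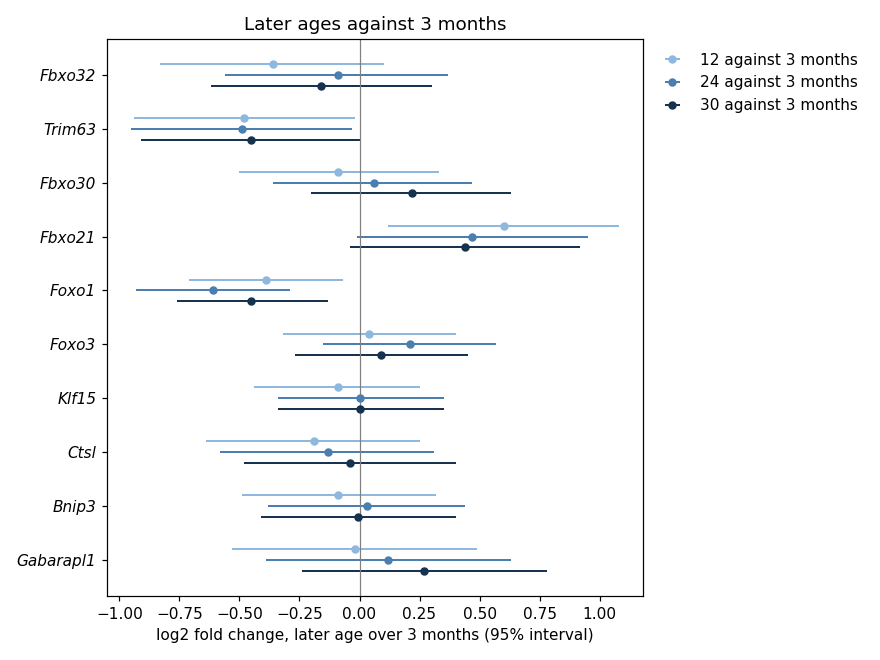
Log2 fold change of each gene at 12, 24 and 30 months over 3 months (horizontal axis), with 95% intervals from edgeR's quasi-likelihood fit. The intervals of Foxo1 lie below 0 at all 3 ages, those of Trim63 at 12 and 24 months, and that of Fbxo21 lies above 0 at 12 months alone, while the intervals of Fbxo32, Fbxo30, Foxo3, Klf15, Ctsl, Bnip3 and Gabarapl1 cover 0 at each age.

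The 95% intervals, not adjusted for the number of genes, bound what these libraries allow. For 30 against 3 months Fbxo32 lay between 0.649-fold and 1.23-fold, Trim63 between 0.531-fold and 1.01-fold, and Foxo3 between 0.827-fold and 1.36-fold. Upper bounds of Fbxo32 and Trim63 were thus the lowest but for that of Foxo1, at 0.916-fold. Upper bounds were 1.55-fold for Fbxo30, 1.89-fold for Fbxo21, 1.32-fold for Ctsl, 1.32-fold for Bnip3 and 1.72-fold for Gabarapl1.

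Lower in all 6 later libraries than in both libraries of 3 months were 2 of the 10 genes, Trim63 and Foxo1, and 1 of 10, Fbxo21, was higher in all 6. Of all genes, 6.09% were lower and 6.86% higher in this way. The same 3 genes held the pattern under RLE scaling and under library totals alone. With 10 genes, counts of 2 and 1 are near what these shares give, so they are no result about the atrophy genes as a group. Slow-fibre markers moved with the same division, with a sum over 5 genes of 676 to 2141 CPM in the 6 later libraries and 355 to 514 CPM at 3 months, without overlap. The slow myosin gene Myh7 rose at 30 against 3 months, by 2.77 on the log2 scale (adjusted p = 0.0280 in edgeR). It alone of these 5 passed, with adjusted p-values of 0.0663 for Tnnt1, 0.252 for Tnni1, 0.232 for Myl2 and 0.146 for Atp2a2. The sum was 2141 CPM in replicate 2 of 30 months, the library that stood apart in its markers, and 1196 CPM in replicate 1. The part of fibre type in the values of Trim63, Foxo1 and Fbxo21 was not tested.

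Clock state was read from the same libraries and is therefore given with no test. With TMM scaling, Fbxo21 and Foxo3 were higher and Ctsl and Gabarapl1 lower with the higher score within each later age. Each of the ages 12, 24 and 30 months has 1 library with a clock score above 2 and 1 below, and the difference was taken within each age. Fbxo21 was higher in the library with the higher score by 0.41, 0.28 and 0.51 on the log2 scale at 12, 24 and 30 months. Foxo3 was higher by 0.15, 0.31 and 0.21. Ctsl was lower at each age, with differences of -0.32, -0.07 and -0.52, and so was Gabarapl1, with -0.50, -0.07 and -0.63. Of all genes, 21.2% were higher and 22.2% lower at all 3 ages, about the same as 2 of 10 and 2 of 10. The clock output gene Dbp differed by 1.40 to 2.09 in the same pairs, which is largely built in because it entered the score. Tef, Per3 and Ciart, on the same side of the score and so under the same limit, were also higher in each pair. Nr1d1, on that side as well, ranged from -0.92 to 0.40 with a mean of -0.43.

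Across all libraries, Fbxo21 was at 18.7 to 21.4 CPM in the 3 libraries with a clock score above 2 and 11.6 to 16.0 CPM in the other 5. Foxo3 was at 45.5 to 53.9 CPM in the 3 and 40.2 to 43.9 CPM in the other 5, and Ctsl at 54.2 to 62.0 CPM in the 3 and 64.9 to 79.8 CPM in the other 5. These groups did not overlap. Of all genes, 8.27% were higher and 7.37% lower without overlap, so 2 of 10 higher and 1 of 10 lower is close to the background. With library totals alone as the scaling, the median of all genes moved to -0.21 within ages, and 0 of the 10 genes were then higher without overlap and 2, Ctsl and Gabarapl1, lower, beside 2.30% and 15.4% of all genes. The within-age mean of Foxo3 was 0.22 with TMM and 0.02 with library totals, and that of Fbxo21 was 0.40 and 0.20.

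Fbxo32, Trim63, Foxo1 and Klf15 had differences of both signs. Fbxo32 differed within ages by -0.15, -0.11 and 0.37, Trim63 by -0.25, 0.01 and 0.32, and Foxo1 by 0.09, 0.05 and -0.11. Klf15 differed by 0.10, -0.37 and -0.11 at the 3 ages. Signs changed from age to age for each of these 4 genes, as they did for Fbxo30 (-0.55, 0.06 and -0.10) and Bnip3 (0.18, 0.39 and -0.06). Of the genes with an E-box in their promoter window, Klf15 and Bnip3 thus changed sign and Ctsl was lower at all 3 ages. The part of E-boxes in these values was not tested. Kidney transcripts part the same libraries as the clock score. Summed fibroblast markers did so too, at 516 to 618 CPM with a score above 2 and 689 to 1308 CPM otherwise. The summed endothelial markers Pecam1, Cdh5 and Kdr were likewise at 110.3 to 127 CPM against 143 to 158 CPM. Sums of muscle fibre, slow-fibre, heart, macrophage and adipocyte markers overlapped over all libraries. At each of the 3 ages, the higher-score library was lower in macrophage, slow-fibre and heart markers and higher in muscle fibre markers. Macrophage sums were 71.1, 66.8 and 105 CPM against 115, 106 and 174 CPM at 12, 24 and 30 months. Muscle fibre sums were 128342, 166472 and 131574 CPM against 108921, 106847 and 77639 CPM. Adipocyte sums differed in both directions. Clock score, kidney transcripts and the fibroblast, endothelial, macrophage, slow-fibre, heart and muscle fibre markers thus cannot be told apart within ages. The part of each in these differences was not tested.

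**Figure D3:**
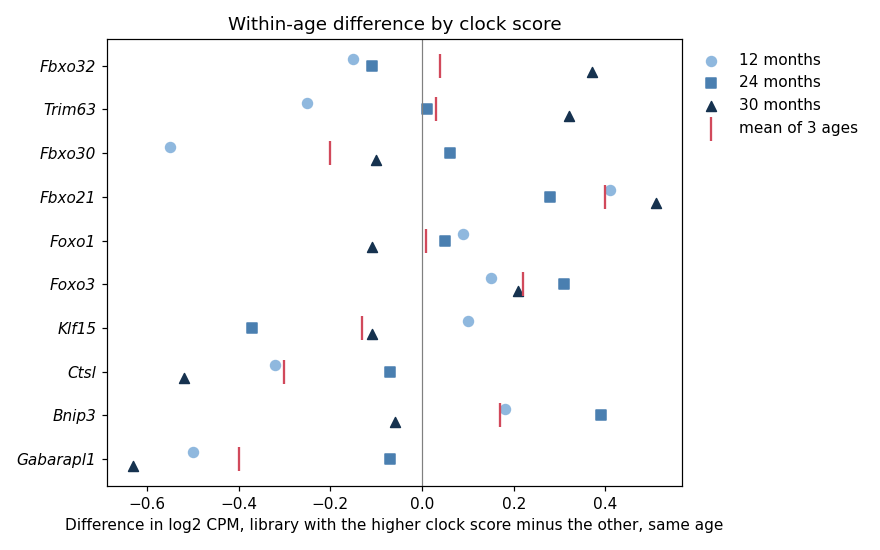
Difference in log2 CPM within each age, library with the clock score above 2 minus the other (horizontal axis), with a symbol for each age and a bar for the mean of 3 ages. Fbxo21 and Foxo3 lie above 0 and Ctsl and Gabarapl1 below 0 at all 3 ages, and the other 6 genes change sign.

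Other genes of the same pathways were described by lists, whose counts stand beside a median log2 fold change of 0.01 over all genes for 30 against 3 months. In that comparison 8.52% of all genes had an unadjusted p below 0.05 in edgeR. Of all genes 0.148% passed, and 2.13% with the library set as a term. Among 18 other ubiquitin ligases of muscle 0 passed in edgeR, 11 were positive and 7 negative, with a median of 0.03 and 2 at an unadjusted p below 0.05. Fbxl22, an F-box protein of the sarcomere Z-disc, had 5.96 to 11.8 CPM in the 6 later libraries, against 4.77 and 3.86 CPM in those of 3 months, and the 30 against 3 month value on the log2 scale was 1.29 (SE 0.26, adjusted p = 0.146). Holding the library set in the model, it passed at 1.05 (adjusted p = 0.0113). Trim72, a membrane repair protein, had 0.68 (SE 0.21, adjusted p = 0.349).

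Of 17 autophagy genes 0 passed, 11 were positive and 6 negative, with a median of 0.04 and 0 at an unadjusted p below 0.05. Map1lc3a, which encodes an LC3 protein of the vesicle membrane, was at 0.41 on the log2 scale (SE 0.20, adjusted p = 0.617), and the protease gene Atg4b -0.23 (SE 0.13, adjusted p = 0.685). Of 12 lysosome genes 0 passed, 9 were positive, and the median was 0.11. The cathepsin gene Ctsz had 0.33 (SE 0.17, adjusted p = 0.658) and Tfeb, a master regulator of lysosome genes, 0.27 (SE 0.25, adjusted p = 0.841). Of 11 genes that act on or beside FoxO 0 passed, 1 was positive and 10 negative, with a median of -0.07. Smad3, a mediator of TGF-beta signalling, had -0.34 (SE 0.20, adjusted p = 0.699).

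Among 10 further FoxO targets 0 passed, 6 were positive and 4 negative, with a median of 0.06 and 4 at an unadjusted p below 0.05. Gadd45a, a growth arrest gene also raised by denervation, had 14.9 and 14.1 CPM in the 3 month libraries, 12.7 and 22.9 in those of 12 months, 22.0 and 26.7 in those of 24 months and 31.5 and 41.9 in those of 30 months, and the 30 against 3 month value on the log2 scale was 1.34 (SE 0.27, adjusted p = 0.146). Pdk4, the kinase that turns off pyruvate dehydrogenase, had 209 to 304 CPM in the 6 later libraries, against 421 and 659 CPM in those of 3 months. All 6 later libraries were below both of 3 months, and the log2 fold change was -1.12 (SE 0.29, adjusted p = 0.255). The cell cycle inhibitor genes Cdkn1b and Cdkn1a, named after their values were seen, passed with the library set as a term, at -0.66 (adjusted p = 0.0256) and 0.78 (adjusted p = 0.0425). In that model 2.13% of all genes passed. Without that term neither passed, with -0.53 for Cdkn1b (adjusted p = 0.338) and 0.17 for Cdkn1a (SE 0.73, adjusted p = 0.971).

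Among the 7 lists, chosen with earlier results of these data known, glucocorticoid-responsive genes had the lowest median. Of 11 genes 0 passed, 2 were positive and 9 negative, with a median log2 fold change of -0.65 for 30 against 3 months. An unadjusted p below 0.05 in edgeR was held by 7 of them, Mt2 higher and the others lower, and by 8.52% of all genes. The median was -0.06 for 12 and -0.31 for 24 against 3 months. The transcription factor gene Cebpd had 11.5 to 29.7 CPM in the 6 later libraries, against 57.3 and 33.9 CPM in those of 3 months, and the 30 against 3 month value on the log2 scale was -1.63 (SE 0.34, adjusted p = 0.179). Fkbp5, a chaperone that binds the glucocorticoid receptor, had 28.3 to 50.3 CPM in the 6 later libraries, against 51.8 and 89.4 CPM in those of 3 months, with -0.93 (SE 0.27, adjusted p = 0.312). Named after their values were seen, 3 genes passed in the model that holds the library set, where 2.13% of all genes passed. Tsc22d3, which encodes the anti-inflammatory factor GILZ, passed at -1.08 (adjusted p = 0.0125), Sgk1 at -1.10 (adjusted p = 0.0258) and the metallothionein gene Mt2 at 1.50 (adjusted p = 0.00938). Without the library set in the model, Tsc22d3 and Sgk1 were nearer to 0, at -0.77 and -0.81 for 30 against 3 months. Mt2 was then at 1.15, and none of the 3 passed (adjusted p = 0.555, 0.565 and 0.548 in edgeR for Tsc22d3, Sgk1 and Mt2). Within ages Tsc22d3 and Sgk1 were higher in the library with the higher clock score, by a mean of 0.62 each. In CPM, Tsc22d3 was at 301, 256 and 147 against 184, 135 and 125 at 12, 24 and 30 months. Sgk1 was at 231, 226 and 112 against 138, 109.9 and 105. The lowest scores were those of 3 months, and the part of clock score in these changes was not tested.

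Of 10 amino acid breakdown genes, some of them known KLF15 targets, 0 passed, 7 were positive and 3 negative, with a median of 0.10. Ivd, an enzyme of leucine breakdown, was at 0.39 on the log2 scale (SE 0.17, adjusted p = 0.569), and Bcat2, the mitochondrial branched-chain aminotransferase, 0.37 (SE 0.16, adjusted p = 0.575). The alanine aminotransferase gene Gpt2, named after its values were seen, passed with the library set as a term at -1.24 (adjusted p = 0.00364) and did not without it, at -0.80 (adjusted p = 0.618).

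**Figure D4:**
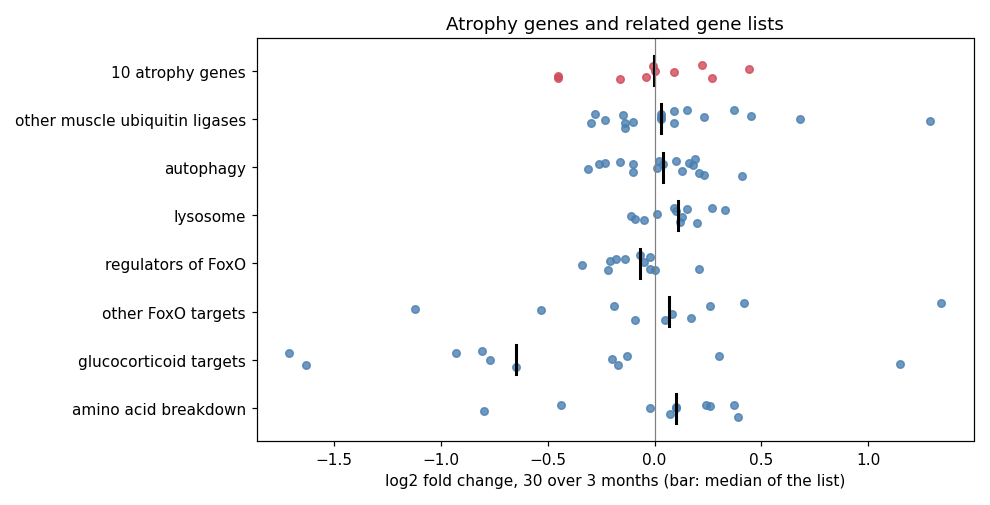
Log2 fold change of single genes for 30 over 3 months (horizontal axis), in rows for the 10 atrophy genes and 7 related lists, with a black bar at each median. The glucocorticoid row has its median at -0.65, and the medians of the other rows lie between -0.07 and 0.11.

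Likeness of pattern was measured as the root mean square difference of centred log2 CPM over the 8 libraries, where 0 is an identical pattern. Among the 10 genes the closest pairs were Foxo3 and Bnip3 at 0.126, Ctsl and Gabarapl1 at 0.130, and Fbxo30 and Gabarapl1 at 0.148, with Fbxo32 and Trim63 at 0.157. Among 9640 other well-measured genes, those closest to Trim63 were Shisa2 (0.088), Itga4 (0.098), Sec24a (0.108), Adamtsl1 (0.109) and Nfia (0.111). Closest to Fbxo32 were Gatad2b (0.069), Ddi2 (0.072), Chd2 (0.085), Cbll1 (0.085) and Ccp110 (0.091). Closest to Klf15 were Srgap2 (0.042), Dgka (0.052), Arhgap26 (0.055), Mtmr9 (0.062) and Arfrp1 (0.066). The 8 libraries share the split by clock score and kidney transcripts, and genes that vary little, such as Klf15, have small distances from one another on this measure.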

How the data were processed

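The authors deposited raw counts for 49315 Ensembl genes in each library, as whole numbers with no normalization. Per the submitters' processing notes, which give no roles, the tools were STAR 2.5.2b, Subread 1.5.2, featureCounts and Trimmomatic 0.36, and the builds mm10 and GRCm38. Annotation release and strand setting: not given in the sources used here. Symbols came from GENCODE M21 on GRCm38, which matched 49056 identifiers, and gene positions and exonic lengths are those of the deposited files.

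The model was fitted with edgeR 4.0.16 under R 4.3.3: filterByExpr on age, TMM scaling, a robust quasi-likelihood fit of the 4 ages over 8 libraries with 4 residual degrees of freedom, and Benjamini-Hochberg adjustment over 19571 genes, with calls below 0.05. The SE was obtained from the F statistic, as the size of the change over the root of F. Log2 CPM used a prior count of 2. The procedure was checked on simulated counts, drawn without the division of libraries by clock score. That check was of the procedure alone and is no measure of what could be detected here. Totals were 42404254 to 59245029 counts, and replicates differed by far more than counting error (chi-square per degree of freedom 49.9 to 123).

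The library set was taken from 9 kidney genes summed above or below 1 CPM. DESeq2 1.42.0 and limma 3.58.1 (voom) were alternatives. All 10 genes were named, with the 2 lowest p-values of each related list (1 gene so chosen is not reported here) and the 5 nearest patterns of 3 genes. Genes and lists were chosen with earlier results of these data known.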

Additional observations from a re-analysis of the deposited data

How the results depend on the processing

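Under each of 17 alternatives, 0 of the 10 genes were called in the 6 pairs of ages, and likewise across the ages and for the slope. The lowest adjusted p among them was 0.104, for Foxo1 at 24 against 3 months with no low count filter. Library totals alone shifted the median log2 fold change of all genes by 0.13 for 30 against 24 months. The cause of the changes in sign below was not tested, and none of these values was called in any setting. For 30 against 3 months, the log2 fold change turned for Klf15 with RLE (-0.0032) and DESeq2 (-0.0031), for Ctsl (0.01) and Bnip3 (0.02) with library totals alone, and for Foxo3 (-0.03) and Ctsl (0.09) with the library set as a term. For 24 against 3 months it turned for Klf15 with RLE (-0.002), library totals (-0.08), a filter of 1 CPM in 2 libraries (-0.02), no low count filter (-0.0025), DESeq2 (-0.002), limma-voom (-0.01), only the 2 ages compared (-0.0078) and the replicate block (-0.00044). There it also turned for Fbxo30 (-0.05) and Bnip3 (-0.10) with library totals, for Bnip3 with the stricter filter (-0.0054), and for Ctsl (0.02) and Bnip3 (-0.07) with the library set. For 12 against 3 months the library set turned Foxo3 (-0.07) and Gabarapl1 (0.16), and for 30 against 12 months library totals turned Foxo1 (0.01). Leaving out 1 library at a time, values for 30 against 3 months ranged over -0.36 to 0.03 for Fbxo32, -0.03 to 0.19 for Foxo3, -0.05 to 0.06 for Klf15, -0.32 to 0.20 for Ctsl, -0.09 to 0.09 for Bnip3 and -0.08 to 0.55 for Gabarapl1. Trim63 stayed within -0.65 to -0.22, Foxo1 within -0.57 to -0.31, Fbxo21 within 0.16 to 0.67 and Fbxo30 within 0.13 to 0.30. Ranges for 24 against 3 months were -0.26 to 0.09 for Fbxo32, -0.03 to 0.15 for Fbxo30, -0.19 to 0.17 for Klf15 and -0.19 to 0.21 for Bnip3. Those for 12 against 3 months were -0.39 to 0.15 for Fbxo30, -0.04 to 0.12 for Foxo3, -0.19 to 0.0087 for Bnip3 and -0.29 to 0.20 for Gabarapl1. Those for 30 against 12 months were -0.14 to 0.18 for Trim63, -0.44 to 0.07 for Fbxo21, -0.07 to 0.15 for Foxo3, -0.13 to 0.39 for Ctsl, -0.0075 to 0.18 for Bnip3 and -0.06 to 0.57 for Gabarapl1. Deviations of same-numbered libraries correlated at -0.36 to 0.26 across genes. The division by clock score enters these deviations, so they cannot decide whether replicate numbers pair the libraries. With the replicate block as a term, 0 of the 10 genes were called in every comparison. Where a library is left out, the lone one of its age is taken to vary as the remaining ages do. With 2 libraries per age the spread between libraries, not the depth, sets the width of the intervals, and differences inside them are not excluded. The intervals are not adjusted for the number of genes. Changes whose intervals left out 0, such as that of Foxo1 at 24 against 3 months, were not called either.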

Other observations

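Other muscle ubiquitin ligases were described by clock score after their values were seen, with no test. Of 18 such genes, 4 were higher in the 3 libraries with a clock score above 2 than in the other 5 without overlap (Fbxo31, Ubr4, Trim55 and Stub1), and 0 were lower, where 8.27% of all genes were higher and 7.37% lower. With library totals alone as the scaling, 2 were higher (Fbxo31 and Ubr4) and 2 lower (Fbxo40 and Ubr2), where 2.30% of all genes were higher and 15.4% lower, so the one-sided count depends on the scaling. Fbxo31, an F-box ligase and FoxO target in mouse muscle, was at 226, 127 and 167 CPM in the 3 libraries of 12, 24 and 30 months with the higher score, and at 94.7, 98.4 and 85.3 CPM in the other library of the same ages. Its mean difference within ages was 0.87 on the log2 scale, more than the 0.40 of Fbxo21.

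The FoxO and p53 target Cdkn1a, which encodes the cell cycle inhibitor p21, went the other way. It was at 3.92, 3.06 and 8.66 CPM in the 3 libraries with the higher score and at 9.89, 12.2 and 24.4 CPM in the others of 12, 24 and 30 months. The libraries of 3 months had 15.1 and 14.3 CPM, between both values of 30 months. Cdkn1a was highest, at 24.4 CPM, in replicate 2 of 30 months, which also stood apart in slow-fibre, macrophage, heart and muscle fibre markers. In the model with the library set its log2 fold change for 30 against 12 months was 1.23 (adjusted p = 0.0153 in edgeR's quasi-likelihood test), and without the library set 0 of the 10 FoxO targets listed with it passed in that comparison.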
